A study of Mus musculus with 18 samples.

Results

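The genes described here are the core circadian clock genes, the activators Arntl (also called Bmal1), Clock and Npas2 and the repressors Per1, Per2, Per3, Cry1, Cry2, Nr1d1 and Nr1d2. All 10 were taken by symbol from the annotation of an Illumina MouseRef-8 v2 bead array, and 8 of the 10 had a probe that was detected (detection p under 0.05) in at least 2 of the 18 libraries, as did 8950 of the 16593 gene symbols on the array. The brightest probe stood for each gene. Each library was the liver RNA of 1 C57BL/6J mouse, labelled male, that was put on its diet at 2 to 5 months of age and killed at 13 to 16 months. The study's methods, unlike the labels, list both male and female mice for the arrays. The diets were 40% calorie restriction (CR) and ad libitum feeding (AL). SIRT1 is an NAD-dependent deacetylase, and the mice carried 0 (SIRT1-/-), 1 (SIRT1+/-) or 2 (SIRT1+/+) intact alleles of its gene. There were 3 CR SIRT1-/-, 3 CR SIRT1+/- and 3 CR SIRT1+/+ mice, against 4 AL SIRT1-/-, 2 AL SIRT1+/- and 3 AL SIRT1+/+ mice. The hour at which the livers were taken is not given in the sources used here, and the restricted mice received a fortified form of the chow that the AL mice ate.

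The mammalian clock is a feedback loop of transcription that turns once a day in almost every cell. ARNTL pairs with CLOCK, or in some tissues with NPAS2, and the pair binds E-boxes and switches on the Per, Cry and Nr1d genes. PER and CRY proteins return to the nucleus and silence the pair, and NR1D1 and NR1D2 (REV-ERBα and REV-ERBβ) sit on ROR elements and silence Arntl and Clock, so that in mouse liver the Arntl transcript peaks when the Nr1d1 and Dbp transcripts are low. SIRT1 has been described as a partner of CLOCK, and the hour of feeding is a strong cue for the liver clock.

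The loop acts through short motifs near gene starts. RefSeq promoter windows (GRCm38.p6, 250 bases before to 50 after an annotated start) were at hand for 9 of the 10 genes, 13 windows in all. They were searched on both strands for 4 motifs, the E-box CACGTG, the ROR element TAGGTCA, the D-box (TTATGTAA or TTACGTAA) and the cyclic AMP response element TGACGTCA. Windows are shown for the 3 genes whose level differed most firmly between the diets (Per1, Cry2 and Nr1d2) and for Arntl and Per3, in which a motif for a repressor or for an output of the clock lies. Capitals mark the motif, and each window is written 5′ to 3′ on the strand of its gene.
Per1 (chr11:69098699-69098998, plus strand): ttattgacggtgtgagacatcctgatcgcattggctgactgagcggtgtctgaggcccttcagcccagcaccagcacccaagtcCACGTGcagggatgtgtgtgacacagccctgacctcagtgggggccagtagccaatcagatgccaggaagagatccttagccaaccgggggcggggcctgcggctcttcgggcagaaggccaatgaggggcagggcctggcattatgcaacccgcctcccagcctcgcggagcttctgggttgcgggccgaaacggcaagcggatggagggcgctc
Cry2 (chr2:92434020-92434319, minus strand): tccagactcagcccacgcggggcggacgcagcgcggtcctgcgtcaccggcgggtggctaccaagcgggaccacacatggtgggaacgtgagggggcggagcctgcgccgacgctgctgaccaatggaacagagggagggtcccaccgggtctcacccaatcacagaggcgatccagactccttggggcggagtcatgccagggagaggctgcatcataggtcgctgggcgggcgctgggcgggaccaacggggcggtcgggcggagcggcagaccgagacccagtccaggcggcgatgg
Nr1d2 (chr14:18239057-18239356, minus strand): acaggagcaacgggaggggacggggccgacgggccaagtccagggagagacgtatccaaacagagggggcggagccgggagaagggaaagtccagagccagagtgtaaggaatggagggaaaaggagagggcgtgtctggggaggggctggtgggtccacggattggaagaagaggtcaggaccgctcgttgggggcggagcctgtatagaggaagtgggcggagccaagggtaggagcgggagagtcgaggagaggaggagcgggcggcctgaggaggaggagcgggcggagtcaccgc
Arntl (chr7:113207261-113207560, plus strand): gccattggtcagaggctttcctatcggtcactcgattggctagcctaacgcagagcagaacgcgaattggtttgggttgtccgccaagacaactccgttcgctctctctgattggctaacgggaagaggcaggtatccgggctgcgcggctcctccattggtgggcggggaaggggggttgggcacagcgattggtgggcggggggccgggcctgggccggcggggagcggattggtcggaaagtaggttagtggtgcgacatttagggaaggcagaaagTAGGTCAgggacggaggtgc
Per3 (chr4:151044616-151044915, minus strand): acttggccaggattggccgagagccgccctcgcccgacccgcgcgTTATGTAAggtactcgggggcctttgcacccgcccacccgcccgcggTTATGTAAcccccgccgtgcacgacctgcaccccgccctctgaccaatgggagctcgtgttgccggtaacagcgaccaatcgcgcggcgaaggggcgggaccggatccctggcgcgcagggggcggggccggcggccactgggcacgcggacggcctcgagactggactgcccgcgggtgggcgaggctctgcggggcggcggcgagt
Per1 had an E-box 166 bases before its start, Arntl a ROR element 30 bases after the second of its starts, and Per3 a D-box at 205 and again at 158 bases before its start. Cry1 had an E-box 60 bases before its start (chr10:85185005-85185304). None of the 4 motifs was written in the windows of Cry2, Nr1d2, Nr1d1, Npas2, Clock, the second start of Per1 or the first of Arntl, which says only that these letters are not in these stretches. Of all 32851 windows of the table, 7.15% held the E-box, 2.61% the ROR element, 1.06% a D-box and 1.79% the cyclic AMP element.

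A few facts of the libraries bear on every value below. Between 10726 and 11386 probes were detected per library. The library of AL SIRT1-/- replicate 4 stood apart, with a mean correlation of 0.944 with the other libraries (0.957 to 0.974 for the rest) and the acute-phase gene Lcn2 at 7.16 on the scaled log2 scale, and the clock results that it changed are given with and without it. All libraries are labelled male, while the study's methods list both sexes. Xist, which coats the silenced X chromosome, was detected in 7 libraries: 5 from CR mice (2 SIRT1-/-, 1 SIRT1+/- and 2 SIRT1+/+) and 2 from AL mice, both SIRT1-/-. The Y-linked Eif2s3y was detected in the other 11. The Sirt1 probe was detected in all 18 libraries, at 1.35 ± 0.38 in CR SIRT1-/- and 1.51 ± 0.46 in CR SIRT1+/+ livers (SD, n = 3 each), and at 1.04 ± 0.17 in AL SIRT1-/- (n = 4) and 1.14 ± 0.05 in AL SIRT1+/+ livers (n = 3). Where it lies with regard to the deletion is not given in the sources used here, so it is no check of the genotype labels. The hepatocyte markers Alb, Ttr, Apoa1, Serpina1a and Cps1 averaged between 4.89 and 5.97 in every library. For the diet difference averaged over genotypes 0 of these 5 were called, with 2 lower on CR at an unadjusted p under 0.05. Of 2 measured erythroid markers 1 was called lower on CR and the other fell short of the adjusted threshold, with a mean level of 3.60 to 6.05 in CR and 4.42 to 6.64 in AL livers. Of 6 endothelial markers 1 was called higher on CR, with a mean level of 1.01 to 1.37 in CR and 0.95 to 1.32 in AL livers. The part of these markers in the clock results was not tested. The genotype of AL SIRT1-/- replicate 1, given as SIRT1-/- in all its labels, was questioned in earlier work on these data. That doubt was not re-examined here, and the values with the liver counted as SIRT1+/- stand with the alternatives.

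Levels are log2 signals centred on the mean of the array, divided by the SD of the array and multiplied by the mean SD of all arrays (1.84). A level of 0 is thus the mean of an array, and a difference of 1 is 1 unit of log2 signal on an array of average spread. Levels of different probes are not set against each other. Differences come from 1 limma fit of the 6 group means, with p-values adjusted over all 8950 genes by Benjamini-Hochberg and called under 0.05, two-sided.

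Of the 6 detected repressors 3 were higher in CR livers, and neither of the 2 detected activators passed the test. Averaged over the 3 genotypes, Cry2 was 1.78-fold, Nr1d2 1.71-fold and Per1 1.62-fold higher in CR than in AL livers, and these 3 of the 8 measured clock genes were called. The background was 6.41% of all genes called higher on CR and 3.63% called lower, and no clock gene was called lower. The median difference was 0.64 over the 8 clock genes and 0.03 over all genes. From mouse to mouse within a group, on the other hand, Arntl and Clock moved together and the clock output Dbp ran opposite to Arntl, while the negative slope of Nr1d1 did not pass the adjusted test.

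**Figure D1:**
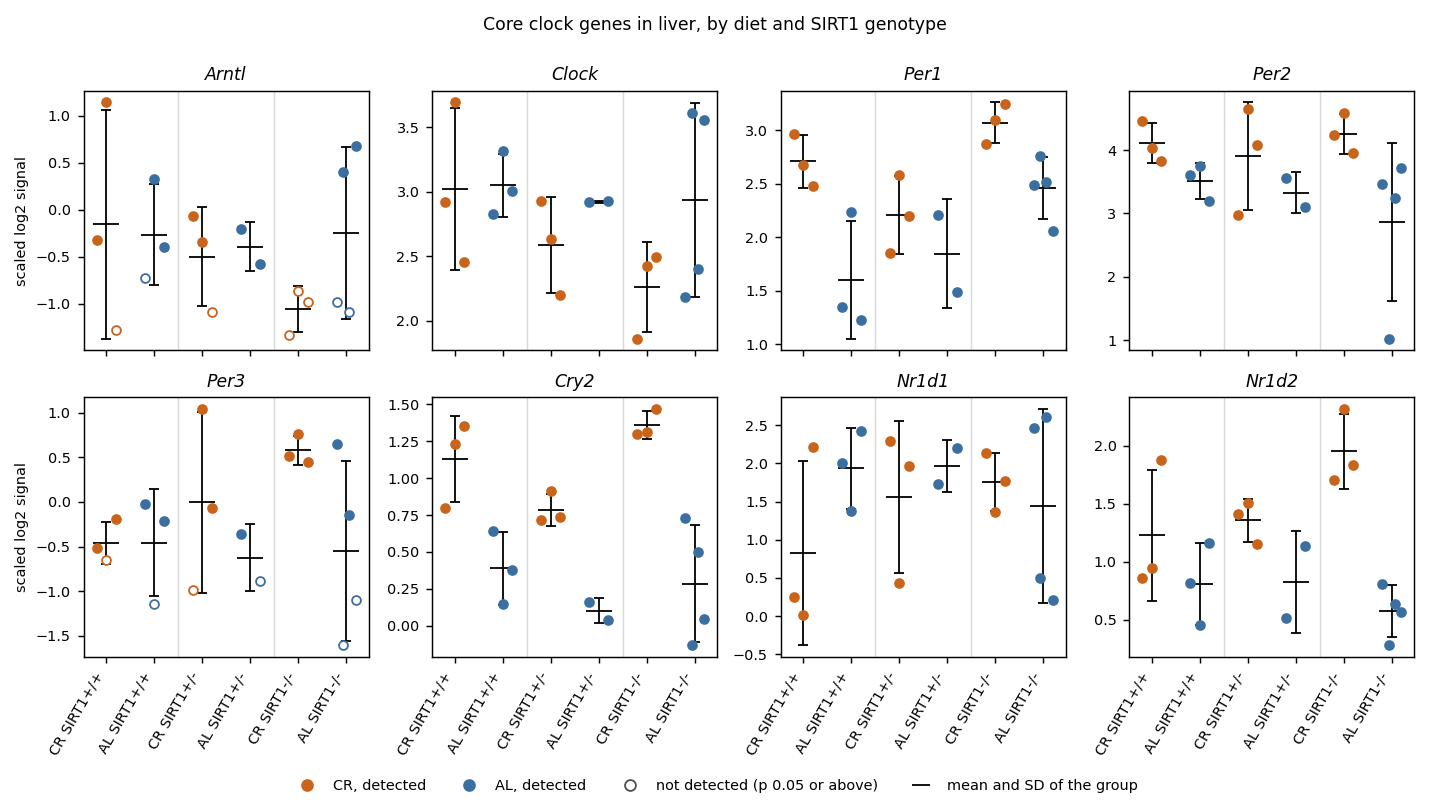
Level of the 8 detected clock genes in each of the 18 livers (scaled log2 signal), by diet and SIRT1 genotype, with open circles where the probe was not detected and bars for the group mean and SD. Every CR liver lies above every AL liver of its genotype for Cry2, while Arntl, Clock and Nr1d1 spread widely inside the groups.

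Cry2, a cryptochrome that silences the ARNTL and CLOCK pair, was detected in all 18 livers. In SIRT1+/+ livers Cry2 was at 0.80, 1.23 and 1.35 on CR and at 0.64, 0.15 and 0.38 on AL. In SIRT1+/- livers Cry2 was at 0.71, 0.91 and 0.74 on CR, and at 0.16 and 0.04 on AL. In the SIRT1-/- mice Cry2 was at 1.30, 1.31 and 1.47 on CR and at 0.73, -0.13, 0.50 and 0.05 on AL. In each genotype every CR liver was above every AL liver, a placement that held for 1.28% of all genes. The averaged difference was 0.83 ± 0.12 (SE, adjusted p = 0.00168, limma), the 22nd smallest p of 8950 genes. An exact permutation test that rearranged the diets within each genotype in all 7000 ways gave p = 0.000143, the smallest it can give. By group mean the order was CR SIRT1-/- (1.36), CR SIRT1+/+ (1.13), CR SIRT1+/- (0.79), AL SIRT1+/+ (0.39), AL SIRT1-/- (0.29) and AL SIRT1+/- (0.10). Neighbouring groups in this order overlapped except CR SIRT1+/- and AL SIRT1+/+. Across genotypes the diets did overlap, since AL SIRT1-/- replicate 1 at 0.73 was above CR SIRT1+/- replicate 1 at 0.71.

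Nr1d2 encodes REV-ERBβ, the nuclear receptor that shares the ROR elements with REV-ERBα. In SIRT1+/+ livers Nr1d2 was at 0.86, 0.95 and 1.88 on CR and at 0.81, 0.46 and 1.16 on AL. In SIRT1+/- livers Nr1d2 was at 1.41, 1.51 and 1.15 on CR, and at 0.52 and 1.13 on AL. In SIRT1-/- livers Nr1d2 was at 1.71, 2.31 and 1.83 on CR and at 0.81, 0.28, 0.64 and 0.57 on AL. Diets overlapped in SIRT1+/+ livers only. All 9 CR livers were above the AL mean of their genotype, and the share of all genes with this placement was not counted. The averaged difference was 0.78 ± 0.16 (SE, adjusted p = 0.00869, limma), with p = 0.001 in the exact permutation test. CR SIRT1-/- livers had the highest group mean, 1.95 ± 0.32, and the next was CR SIRT1+/- at 1.36 ± 0.18 (SD, n = 3 each). These groups did not overlap, and how many of all genes separate them was not counted. CR SIRT1-/- did overlap CR SIRT1+/+, whose replicate 3 at 1.88 was above CR SIRT1-/- replicates 1 and 3, at 1.71 and 1.83.

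Per1, a period gene that answers quickly to glucocorticoids and cyclic AMP as well as to the clock, was also detected in every liver. In SIRT1+/+ livers Per1 was at 2.97, 2.68 and 2.48 on CR and at 1.35, 2.24 and 1.23 on AL. In SIRT1+/- livers Per1 was at 1.85, 2.58 and 2.20 on CR, and at 2.21 and 1.49 on AL. Among SIRT1-/- livers Per1 was at 2.87, 3.10 and 3.25 on CR and at 2.49, 2.76, 2.52 and 2.06 on AL. The diets did not overlap in SIRT1+/+ and SIRT1-/- livers and overlapped in SIRT1+/- livers. The averaged difference was 0.69 ± 0.16 (SE, adjusted p = 0.0158, limma), with p = 0.003 in the exact permutation test. All 9 CR livers were above the AL mean of their genotype, again without a count over all genes. Without AL SIRT1+/- replicate 2 the difference was 0.57 and no longer called (adjusted p = 0.0646). A second Per1 probe followed the first over the 18 libraries (r = 0.978) and had an averaged difference of 0.52.

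Xist-positive livers were spread unevenly over the diets compared in these 3 calls, 5 of 9 on CR and 2 of 9 on AL. With the level of Y-linked transcripts in the model, Cry2 stood at 0.83 (adjusted p = 0.00613) and Nr1d2 at 0.72 (adjusted p = 0.0280), both called, while Per1 stood at 0.57 with an adjusted p of 0.050, just above the threshold and not called. In the 11 livers with a Y-linked transcript alone, the differences were 0.79 for Cry2, 0.54 for Nr1d2 and 0.62 for Per1, none of them called. That subset holds only 1 CR SIRT1+/+ and 1 CR SIRT1-/- liver, so the loss of the calls cannot be laid to sex or to the smaller number of livers. Without AL SIRT1-/- replicate 4, the liver that stood apart, all 3 were called, at 0.81, 0.78 and 0.65.

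Per2 and Per3, the other period genes, were not called for the diet. Per2 was at 4.46, 4.04 and 3.83 in CR SIRT1+/+ livers against 3.60, 3.74 and 3.20 in AL SIRT1+/+ livers. It was at 2.97, 4.64 and 4.09 in CR SIRT1+/- livers, against 3.55 and 3.10 in AL SIRT1+/- livers, and at 4.24, 4.58 and 3.95 in CR SIRT1-/- livers against 3.47, 1.03, 3.24 and 3.72 in AL SIRT1-/- livers. The diets overlapped in SIRT1+/- livers only, and AL SIRT1-/- replicate 2 was far below every other liver. The averaged difference of Per2 was 0.85 ± 0.32 (SE, adjusted p = 0.0999, limma), as large as that of Cry2 with a wider error, and the exact permutation test gave p = 0.013. Per3 lay between -1.61 and 1.04 and was detected in 12 of the 18 livers. It was at -0.52, -0.65 and -0.20 in CR SIRT1+/+ livers against -0.02, -1.14 and -0.21 in AL SIRT1+/+ livers, and both groups had a mean of -0.46. It was at -0.99, 1.04 and -0.06 in CR SIRT1+/- livers, against -0.36 and -0.89 in AL SIRT1+/- livers, and at 0.52, 0.76 and 0.45 in CR SIRT1-/- livers against 0.65, -1.61, -0.14 and -1.10 in AL SIRT1-/- livers. The diets overlapped in every genotype, and 2 of the AL SIRT1-/- livers were below detection. Its averaged difference was 0.58 ± 0.31 (SE, adjusted p = 0.231, limma).

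Nr1d1, which encodes REV-ERBα, was detected in all 18 livers and was not called for the diet. In SIRT1+/+ livers Nr1d1 was at 0.25, 0.01 and 2.21 on CR and at 2.01, 1.37 and 2.42 on AL. In SIRT1+/- livers Nr1d1 was at 2.29, 0.43 and 1.96 on CR, and at 1.72 and 2.20 on AL. For SIRT1-/- livers Nr1d1 was at 2.13, 1.36 and 1.77 on CR and at 2.46, 0.49, 2.60 and 0.21 on AL. Diets overlapped in every genotype, and single livers of a group differed by more than the diets did. The averaged difference was -0.40 ± 0.40 (SE, adjusted p = 0.546, limma), with an interval of -1.26 to 0.46. A second Nr1d1 probe, with r = 0.985 to the first, gave -0.29.

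Clock, the partner of ARNTL in the activator pair, lay between 1.86 and 3.69. It was at 2.92, 3.69 and 2.45 in CR SIRT1+/+ livers against 2.83, 3.31 and 3.00 in AL SIRT1+/+ livers. It was at 2.93, 2.63 and 2.19 in CR SIRT1+/- livers, against 2.92 and 2.93 in AL SIRT1+/- livers, and at 1.86, 2.42 and 2.5 in CR SIRT1-/- livers against 2.18, 3.61, 2.40 and 3.55 in AL SIRT1-/- livers. The diets overlapped throughout, and the averaged difference was -0.35 ± 0.22 (SE, adjusted p = 0.328, limma). A second Clock probe, with r = 0.894 to the first and detected in 12 livers, had an averaged difference of -0.10.

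Arntl, the partner without which the loop does not run, was dim and was detected in 10 of the 18 livers. It was at -0.33, 1.14 and -1.28 in CR SIRT1+/+ livers against -0.72, 0.32 and -0.40 in AL SIRT1+/+ livers. It was at -0.07, -0.35 and -1.09 in CR SIRT1+/- livers, against -0.21 and -0.58 in AL SIRT1+/- livers, and at -1.33, -0.86 and -0.98 in CR SIRT1-/- livers against -0.98, 0.41, -1.09 and 0.68 in AL SIRT1-/- livers. None of the 3 CR SIRT1-/- livers reached detection, the only group of which this was true, and 2 of the 4 AL SIRT1-/- livers did. The measured means were -1.06 in CR SIRT1-/- and -0.25 in AL SIRT1-/- livers, a difference of -0.81 ± 0.51 (SE, adjusted p = 0.478, limma) with an interval of -1.90 to 0.28. Without AL SIRT1-/- replicate 4 that difference was -0.50 (adjusted p = 0.651), and no fold is given because a whole group was undetected. The averaged difference between the diets was -0.27 ± 0.32 (SE, adjusted p = 0.620, limma), with an interval of -0.96 to 0.42. Npas2, the stand-in for CLOCK in the forebrain and other tissues, reached detection in 1 liver, AL SIRT1-/- replicate 2, and Cry1 in 0, with signals between 34.1 and 48, so neither can be compared.

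**Figure D2:**
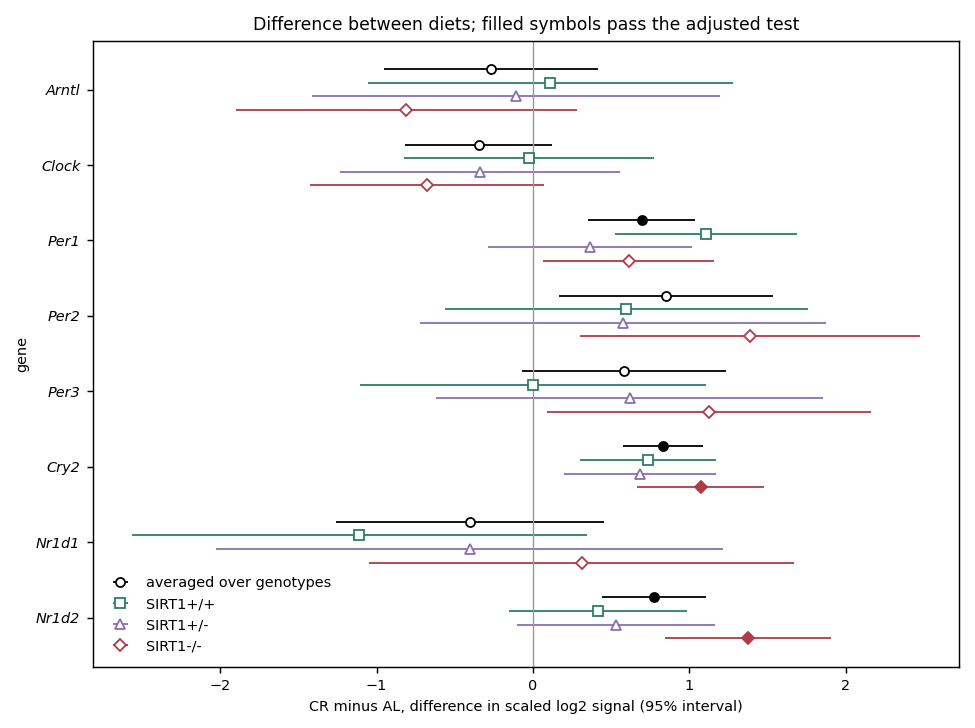
Difference between CR and AL livers (scaled log2 signal, with the 95% interval of the limma fit) for the 8 detected clock genes, averaged over genotypes and in each SIRT1 genotype, with filled symbols for an adjusted p under 0.05. Cry2, Nr1d2 and Per1 pass for the average, Cry2 and Nr1d2 pass in SIRT1-/- livers, and the intervals of the 3 genotypes overlap for every gene.

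Within single genotypes fewer clock genes were called. In SIRT1+/+ livers 0 of 8 were called against a background of 0.268% called higher, with 2 under an unadjusted p of 0.05, Per1 at 1.11 ± 0.27 (SE, adjusted p = 0.0792, limma) and Cry2 at 0.74 ± 0.20 (adjusted p = 0.107). Per1 was called, at 1.42, without AL SIRT1+/+ replicate 2 (adjusted p = 0.0378). In SIRT1+/- livers 0 of 8 were called against a background of 0.0223%, with Cry2 at 0.69 ± 0.23 (SE, adjusted p = 0.434, limma) the 1 gene under an unadjusted p of 0.05. In SIRT1-/- livers 2 of 8 were called against a background of 0.145% called higher, Nr1d2 at 1.38 ± 0.25 (SE, adjusted p = 0.0436, limma), a 2.60-fold difference, and Cry2 at 1.07 ± 0.19 (adjusted p = 0.0435), a 2.11-fold difference. Both sat close to the threshold and were lost when any of several single libraries was left out, as set out with the alternatives. Without AL SIRT1-/- replicate 4, the liver that stood apart, Cry2 was at 0.99 (adjusted p = 0.0662) and Nr1d2 at 1.38 (adjusted p = 0.0597), neither of them called. Per2 at 1.39 ± 0.51, Per3 at 1.13 ± 0.49 and Per1 at 0.61 ± 0.26 passed the unadjusted threshold alone in SIRT1-/- livers.

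Counted without a model, all CR livers were above all AL livers for Per1, Per2 and Cry2 in SIRT1+/+ mice, where 12.6% of all genes were so placed, for Cry2 and Nr1d2 in SIRT1+/- mice, against 18% of genes, and for Per1, Per2, Cry2 and Nr1d2 in SIRT1-/- mice, against 7.09%. No clock gene had all CR livers below all AL livers in any genotype. The small groups make such placements common, as the shares over all genes show.

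Whether the response to CR depended on SIRT1 was asked by subtracting the CR effect in SIRT1-/- livers from that in SIRT1+/+ livers. Among the clock genes 0 of 8 were called, against 0.0223% of all genes, and 1, Nr1d2, had an unadjusted p under 0.05. Its CR effect was 0.42 in SIRT1+/+ and 1.38 in SIRT1-/- livers, a difference of -0.96 ± 0.37 (SE, adjusted p = 0.788, limma) with an interval of -1.74 to -0.18. For Cry2 the difference was -0.34, with an interval of -0.93 to 0.26, and for Per1 it was 0.49, with an interval of -0.30 to 1.29. A call in SIRT1-/- livers and none in SIRT1+/+ livers is therefore no shown difference between the genotypes. Neither contrast of the CR effect with SIRT1+/- livers called any of the 8, against 0% of all genes. For SIRT1-/- minus SIRT1+/- Nr1d2 was at 0.84 ± 0.39, under an unadjusted p of 0.05 alone (SE, adjusted p = 0.999, limma). For SIRT1+/+ minus SIRT1+/- it was at -0.11 ± 0.40.

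Comparisons of the genotypes on one diet gave no call among the clock genes. Between SIRT1-/- and SIRT1+/+ livers on AL, 0 of 8 were called against 0.380% of all genes, and 1, Per1, had an unadjusted p under 0.05, at 0.86 ± 0.26 (SE, adjusted p = 0.280, limma). Its means were 2.46 ± 0.29 in AL SIRT1-/- livers (SD, n = 4) and 1.60 ± 0.55 in AL SIRT1+/+ livers (SD, n = 3), and the ranges overlapped. AL SIRT1-/- livers included 2 with Xist detected and AL SIRT1+/+ livers none, and the part of this in the Per1 difference was not tested. Between SIRT1-/- and SIRT1+/+ livers on CR, 0 of 8 were called against 0% of all genes, and 1, Nr1d2, had an unadjusted p under 0.05, at 0.72 ± 0.27 (SE, adjusted p = 0.999, limma). Between SIRT1-/- and SIRT1+/- livers on CR, 0 of 8 were called against 0% of all genes, and 3 had an unadjusted p under 0.05, Per1 at 0.86 ± 0.27, Cry2 at 0.57 ± 0.20 and Nr1d2 at 0.59 ± 0.27 (SE, adjusted p = 0.751, 0.878 and 0.954, limma). No clock gene was called or under an unadjusted p of 0.05 between SIRT1-/- and SIRT1+/- livers on AL, against 0.246% of all genes called, or between SIRT1+/- and SIRT1+/+ livers on CR or AL, against 0% of all genes called on either diet. Over all 6 groups together, the F test called 1 of the 8, Cry2 (F = 11.4, adjusted p = 0.0208, limma), against 0.983% of all genes, with Per1 (adjusted p = 0.0621) and Nr1d2 (adjusted p = 0.0633) next.

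Mice of a group differed from each other in the clock genes more than in most genes. The SD within groups was 0.94 for Nr1d1, 0.75 for Arntl and Per2, 0.71 for Per3 and 0.51 for Clock, and each of these was larger than that of at least 93.2% of all genes, whose median was 0.22. Per1 (0.36) and Nr1d2 (0.35) lay lower, and Cry2 (0.26) lay near the middle of all genes. The genes called for the diet were those that varied least from mouse to mouse, and a smaller spread by itself makes a call easier. Per2 had an averaged difference of 0.85 against 0.83 for Cry2 and was not called.

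The relation between activators and repressors was therefore read within groups, from the deviation of each liver from the mean of its group. A slope on Arntl was fitted for every gene with the 6 group means in the model. Of the 7 clock genes other than Arntl 1 was called, Clock, against 0.0335% of all 8949 genes, which is 3 genes. Clock rose by 0.64 ± 0.07 per unit of Arntl (SE, adjusted p = 0.00201, limma), the smallest p of any gene. The others called were Dbp, with a slope of -2.38 ± 0.30 (adjusted p = 0.00447), and Leng9, with 0.60 ± 0.08 (adjusted p = 0.00666), which was named after its value was seen. Nr1d1 had a slope of -0.997 ± 0.202, the 18th smallest p, and was not called (adjusted p = 0.0882). Nr1d1 was called with the Y-linked transcripts in the model, at -1.13 (adjusted p = 0.0334), and without CR SIRT1+/- replicate 1, at -1.11 (adjusted p = 0.0110). Clock was not called in the 11 livers with a Y-linked transcript, at 0.70 (adjusted p = 0.0817). Slopes were -0.54 ± 0.21 for Per3 and -0.19 ± 0.09 for Cry2, both under an unadjusted p of 0.05 alone, and -0.22 ± 0.11 for Nr1d2, -0.17 ± 0.26 for Per2 and 0.09 ± 0.13 for Per1. Arntl itself was under detection in 8 of the 18 livers, so its lowest values are not well above background.

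**Figure D3:**
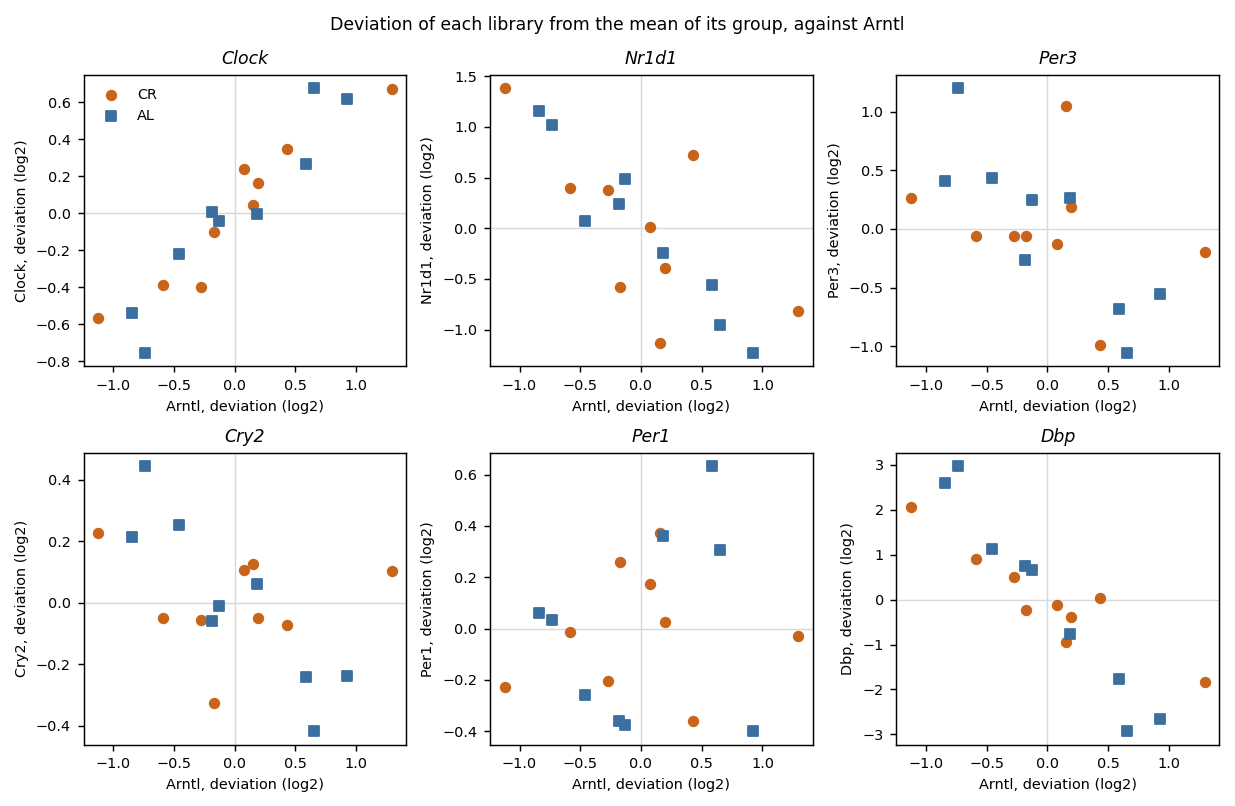
Deviation of each of the 18 livers from the mean of its diet and genotype group, for Clock, Nr1d1, Per3, Cry2, Per1 and Dbp (vertical axes) against Arntl (horizontal axes), in scaled log2 signal, with CR and AL livers marked. Clock rises with Arntl (r = 0.944), Nr1d1 falls (r = -0.797), and Per1 shows little relation (r = 0.177).

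The same was asked of 13 gene pairs as correlations, the 12 pairs of a detected activator and a detected repressor and the pair of Arntl and Clock. Over the 18 livers, as deviations from the group means, Arntl and Clock had r = 0.944 and rho = 0.948 (permutation within groups, p = 0.000290 and adjusted p = 0.00377 for r, p = 0.000400 and adjusted p = 0.00520 for rho). Without the 2 livers farthest from the median of Arntl, r was 0.943. None of the 12 activator and repressor pairs passed the adjustment over the 13 pairs. The strongest was Arntl with Nr1d1 at r = -0.797 and rho = -0.767 (permutation p = 0.0205 and 0.0233, adjusted p = 0.0954 and 0.0965), with r = -0.750 without the 2 farthest livers. Clock with Nr1d1 had r = -0.768 and rho = -0.721 (permutation p = 0.0366 and 0.0371, adjusted p = 0.115 and 0.0965), and Clock with Per3 had r = -0.686 and rho = -0.744 (permutation p = 0.0220 and 0.00852, adjusted p = 0.0954 and 0.0554). Both Per1 pairs were slightly positive, at 0.177 with Arntl and 0.111 with Clock.

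Pooled over all 18 livers, group differences included, Arntl and Clock had r = 0.938 and rho = 0.917, and 7 of the 12 activator and repressor pairs passed the adjustment by r. Those were Arntl with Per3 (r = -0.658), Nr1d1 (r = -0.723) and Nr1d2 (r = -0.536), and Clock with Per3 (r = -0.775), Nr1d1 (r = -0.633), Nr1d2 (r = -0.570) and Cry2 (r = -0.544), with adjusted permutation p between 0.00123 and 0.0353. By rho, 3 of them passed, Arntl with Per3 and Nr1d1 and Clock with Per3. Arntl and Nr1d1 ran opposite in each subset of livers looked at, group differences included. By r they had -0.702 in the 9 CR livers, -0.929 in the 9 AL livers, -0.843 in the 7 livers with Xist detected and -0.838 in the 11 without. By rho they had -0.517, -0.933, -0.857 and -0.582 in these subsets, weaker in the CR livers and in those without Xist. For Arntl and Clock the r was 0.947, 0.942, 0.926 and 0.945 in the same subsets.

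Single livers show how wide this spread was. AL SIRT1-/- replicates 2 and 4 had the highest Arntl of their group, 0.41 and 0.68, with Clock at 3.61 and 3.55, Nr1d1 at 0.49 and 0.21 and Dbp at 0.68 and 0.96. Replicates 1 and 3 of the same group had Arntl at -0.98 and -1.09, Clock at 2.18 and 2.40, Nr1d1 at 2.46 and 2.60 and Dbp at 6.59 and 6.22. Dbp, the D-box activator that ARNTL and CLOCK drive, thus differed by more than 5 units of log2 between mice of 1 genotype on 1 diet. In CR SIRT1+/+ livers, replicate 2 had Arntl at 1.14, Clock at 3.69, Nr1d1 at 0.01 and Dbp at 1.79, and replicate 3 had -1.28, 2.45, 2.21 and 5.69 for the same genes. The livers came from mice whose hour of death is not known here, and hour and mouse cannot be told apart.

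**Figure D4:**
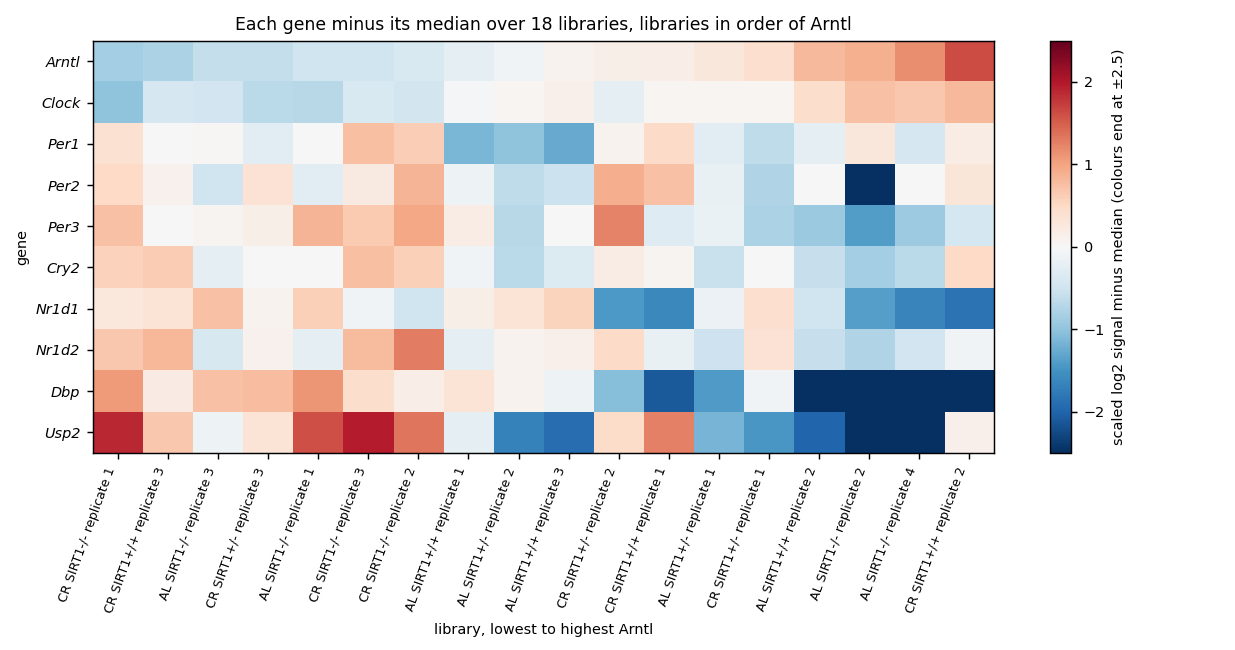
The 8 detected clock genes, Dbp and Usp2 in the 18 livers, each as its scaled log2 signal minus its median over the livers, with livers in the order of Arntl. CR and AL livers are mixed along the order, and Dbp is lowest in the 4 livers with the highest Arntl.

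Of genes outside the loop, the lists of clock regulators, clock outputs and systemic cues were read for the averaged diet difference beside the shares of all genes, of which 6.41% were called higher and 3.63% lower, with a median of 0.03. Among the regulators, 17 of 29 were measured, 2 rose and 0 fell, with a median of 0.20. Usp2, a ubiquitin protease that acts on clock proteins, rose by 2.04 ± 0.56 (SE, adjusted p = 0.0334, limma), at 3.97, 2.84 and 3.38 in CR SIRT1+/+ against 2.49, 0.74 and 0.80 in AL SIRT1+/+ livers. Usp2 was at 1.26, 3.17 and 3.05 in CR SIRT1+/- livers, against 1.56 and 1.02 in AL SIRT1+/- livers, and at 4.60, 4.06 and 4.68 in CR SIRT1-/- livers against 4.32, 0.02, 2.58 and -0.62 in AL SIRT1-/- livers. Its diets overlapped in SIRT1+/- and SIRT1-/- livers and not in SIRT1+/+ livers. Sfpq, a splicing factor found in PER complexes, rose by 0.29 ± 0.09 (adjusted p = 0.0405).

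Among the clock outputs, 21 of 26 were measured, 3 rose and 2 fell, with a median of 0.19, beside 6.41% higher, 3.63% lower and a median of 0.03 over all genes. The risers were Nampt, which makes the NAD precursor that SIRT1 depends on, at 0.87 ± 0.18 (SE, adjusted p = 0.0101, limma), the gluconeogenic Pck1 at 0.79 ± 0.18 and the transcription factor Klf15 at 0.33 ± 0.10. Insig2, which holds back sterol synthesis, fell by 0.78 on the log2 scale (SE 0.19). Elovl3, an elongase of very long fatty acids, was called lower (adjusted p = 0.000281) but was not detected in CR SIRT1+/+, CR SIRT1-/- or AL SIRT1-/- livers, so no fold is given, and in SIRT1-/- livers it was not called (adjusted p = 0.899). Dbp itself differed by 0.63 ± 0.84 and was not called (adjusted p = 0.661). Among the systemic cues, genes that carry temperature, glucocorticoid and feeding signals, 13 of 20 were measured, 2 rose and 0 fell, with a median of 0.38, beside the same 6.41%, 3.63% and 0.03 over all genes. They were Fkbp5, a co-chaperone of the glucocorticoid receptor, at 1.09 ± 0.29 (SE, adjusted p = 0.0284, limma) and the cold-induced RNA-binding protein Rbm3 at 1.09 ± 0.25 (adjusted p = 0.0162).

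Genes outside the loop whose level over the 18 livers was most like that of a clock gene are given as a description, over 8942 genes that share the same libraries. After Clock, the genes most like Arntl were Rnf113a2 (r = 0.871), Itgae (0.856), Lgalsl (0.851), Taf12 (0.838) and Slc45a3 (0.837). Most opposite to it were Dbp (r = -0.898), Pcsk4 (-0.824), Epha1 (-0.807), Mafg (-0.799) and Ermard (-0.791). For Nr1d1 the most like were Gpr146 (r = 0.883), Tbc1d10a (0.869), Dbp (0.837), Bri3 (0.782) and Cebpa (0.781).

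Most opposite to Nr1d1 were Pdk4 (r = -0.918), the fasting-induced kinase that shuts pyruvate dehydrogenase, Atp2a2 (-0.876), Hilpda (-0.820), Tfrc (-0.815) and Igfbp1 (-0.800). Per1 had other neighbours, F5 (r = 0.859), Setd4 (0.847), Ppargc1a (0.843), the coactivator of fasting metabolism, Slc7a2 (0.835) and Cbr1 (0.832). Most opposite to Per1 were Cldn2 (r = -0.851), Mup20 (-0.850), Nat8 (-0.838), C6 (-0.834) and Wbp1 (-0.829). Per1 and Nr1d1 thus shared none of their named neighbours. The nearest clock gene to Per1 was Cry2 (r = 0.546), the 466th of all genes, while Clock was the first for Arntl.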

How the data were processed

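Liver RNA of 18 mice was measured on Illumina MouseRef-8 v2 arrays. The authors extracted the bead values with BeadStudio 3.4.0 and deposited the intensity of each probe without normalization, with its detection p-value, which they also deposited per probe. The deposited z score of each probe is the log2 intensity centred and scaled within its array, as checked on the files, and the scaled log2 level used here is that score times the mean SD of all arrays. Of 25697 probes, 23978 had 1 symbol and 1719 had none. A probe was kept if 2 or more libraries had its detection p below 0.05, and the brightest stood for its gene. Fits used limma 3.58.1 in R 4.3.3, the rest Python 3.11.15, scipy 1.17.1, numpy 2.4.6, pandas 2.3.3 and matplotlib 3.10.9. The scripts were tested on simulated data. Groups came from the sample labels, and p-values measure the spread between these 18 samples, which no source ties to litters or days. All 10 clock genes were named, with the 5 most alike and 5 most opposite genes of Arntl, Nr1d1 and Per1, and list genes past the threshold. The clock genes and the lists were chosen with earlier results of these data known. No source says that replicate numbers shared between groups pair the samples, so no block was used in the main fit. Over all genes, same-numbered livers deviated from their group means with correlations between -0.18 and 0.29. Such correlations cannot show whether same-numbered livers shared a day. Alternatives were other normalizations (neqc, quantile), probe filters, array weights, a replicate block, sex-linked transcripts, other sets of samples and leaving out each library. Intensities are limited in precision by the number of arrays. Listed genes without a named probe were not analysed here.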

Additional observations from a re-analysis of the deposited data

Results flagged for a closer look

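The liver of AL SIRT1-/- replicate 4 had a mean correlation of 0.944 with the other libraries and lay apart from the other 3 of its group by more than 4 samples allow in about 19 of 20 groups, since chance sets apart about 1 in 20. It had the highest Arntl of its group and among the lowest Dbp of all livers, beside the highest Lcn2 (7.16), Saa1 (4.30) and Orm2 (7.13) of the series, and their part in its clock values was not tested. Cry2, Nr1d2 and Per1 were called without it.

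Xist was detected in 7 libraries although all 18 are labelled male, while the study's methods list both male and female mice. Of these, 5 were CR and 2 were AL livers, and the diet differences with this taken into account stand beside the calls of Cry2, Nr1d2 and Per1.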

How the results depend on the processing

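The diet calls averaged over genotypes were the steadiest: 3 clock genes in the main setting, 2 to 3 when single libraries were left out, and 0 in the 11 livers with a Y-linked transcript. In SIRT1+/+ livers the count was 0 and became 1 with array weights (Cry2) and 0 to 1 with single libraries left out. In SIRT1-/- livers the count of 2 became 1 with neqc and with quantile normalization, and 0 without the filter on dim probes, with the Y-linked covariate, in the livers with a Y-linked transcript, and with only the groups compared fitted. With single libraries left out it was 0 to 2: both calls held in 5 of 18 such settings, Cry2 alone in 1 (without CR SIRT1+/- replicate 2), and none in 12, among them each CR SIRT1-/- library and AL SIRT1-/- replicates 2, 3 and 4. Over the 6 groups the count of 1 became 0 with neqc, quantile normalization, the Y-linked covariate and the Y-linked livers, 2 with the mean of probes, 3 with array weights, and 0 to 2 with single libraries left out. The relation to Arntl had 1 call, 0 in the Y-linked livers, 2 with the Y-linked covariate (Clock and Nr1d1), and 1 to 2 with single libraries left out (2 without CR SIRT1+/- replicate 1). The other comparisons had 0 calls throughout. With the replicate block the SIRT1-/- calls fell to 0 (Nr1d2 1.38, adjusted p = 0.0671) and the relation to Arntl to 0 (Clock 0.65, adjusted p = 0.217). The averaged calls stayed at 3 with the block. The averaged difference of Nr1d1 was -0.64 ± 0.27 with the block (SE, adjusted p = 0.127, limma) and -0.40 ± 0.40 without it. Whether the numbers pair the samples is not known here. Genes called for the averaged diet difference numbered 899 in the main setting, 2136 with array weights, 491 with the Y-linked covariate and 67 in the Y-linked livers. AL SIRT1-/- replicate 1 is SIRT1-/- in all its labels, and with it counted as SIRT1+/- the averaged calls were Cry2 at 0.81, Nr1d2 at 0.80 and Per1 at 0.63. The same recount left Cry2 at 1.22 and Nr1d2 at 1.46 called in SIRT1-/- livers and moved uncalled values, to 0.19 for Per3 and 0.15 for Per1 in SIRT1+/- livers and to 0.65 for Nr1d1 in SIRT1-/- livers. The cause of these shifts was not tested.

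Of uncalled values that changed sign, Arntl averaged over genotypes was 0.015 in the Y-linked livers. In SIRT1+/+ livers, Arntl was -0.54 to 0.67 with single libraries left out, Clock was 0.039 with the mean of probes, 0.085 with weights, 0.086 with the covariate, 0.64 in the Y-linked livers and -0.36 to 0.26 with single libraries left out, and Per3 was -0.13 with neqc, -0.041 with quantile normalization, -0.22 with the covariate, -0.20 in the Y-linked livers and -0.34 to 0.22. In SIRT1+/- livers, Arntl was 0.020 with weights, 0.12 with the block, 0.051 with the covariate, 0.089 with AL SIRT1-/- replicate 1 counted as SIRT1+/- and -0.32 to 0.18, and Nr1d1 was 0.16 in the Y-linked livers and -0.77 to 0.16. In SIRT1-/- livers, Nr1d1 was -0.10 with the block and -0.10 to 0.70. The slope of Per2 on Arntl was -0.39 to 0.074. As correlations, Arntl with Per1 was -0.11 and Clock with Per1 was -0.24 when pooled, and Clock with Per2 was 0.030 without the 2 farthest livers. In all, 1095 of the values recomputed under an alternative kept their direction and side of the threshold, 44 kept their direction and lost the threshold, 11 kept it and passed the threshold, and 31 changed sign. Correlations without the 2 farthest livers had no test and were counted by direction alone.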
